A study of Mus musculus with 10 samples.

Results

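The genes described here encode the chaperones of the cytosol and the mitochondria of the mouse, the proteins that fold, hold and remodel other proteins. They were chosen by gene symbol: heat shock protein genes of the Hspa, Hspb, Hspd, Hspe, Hsph and Hsp90 names, Dnaja, Dnajb and Dnajc genes, Bag1 to Bag6, the Cct genes and Tcp1, St13, Stip1, Ahsa1 and Ahsa2, Hsf1 and Hsf2, Cryab, Trap1, Grpel1 and Grpel2. The endoplasmic reticulum genes Hspa5, Hsp90b1, Dnajb9, Dnajb11, Dnajc3 and Dnajc10 were left out by name. This gave 94 of the 20295 genes in the deposited count table.

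The study sequenced polyA-selected RNA of interscapular brown adipose tissue from 10 male C57BL/6JBomTac mice, 8 weeks old, 1 library per mouse. All were wild type by the column names of the count table, carried no named transgene or drug, and were single-housed at 22 °C on chow before the experiment. The 5 control mice stayed at 22 °C, and the 5 cold mice spent 3 days at 4 °C. The tissue was sequenced whole, so fewer cells of a type and less RNA per cell cannot be told apart in any value below.

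Hsp70 proteins bind exposed hydrophobic stretches of a client and release them in a cycle driven by ATP. J proteins deliver the client and start the hydrolysis, nucleotide exchange factors such as the Bag proteins, Hsp110 and the Grpel proteins reset the cycle, and Hsp90 and the ring-shaped chaperonins take over later folding steps. Mitochondria have their own set, in which Hspa9 pulls in and folds imported proteins and the Hspd1 and Hspe1 ring folds them further. Brown adipocytes are rich in mitochondria and make heat through Ucp1.

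Library totals ran from 4446163 to 6923932 counted reads, and 82 of the 94 genes passed the filter on low counts. Values below are normalised read counts in CPM (counts scaled to library sizes that were adjusted by TMM), or CPM per kilobase of the counted length (RPKM) where genes are compared with each other. In a principal component analysis of all genes tested, control replicate 2 (second component -36.5, other controls 2.3 to 23.7) and cold replicate 5 (first component 6.71, other cold libraries 24.2 to 31.7) stood apart from their groups. The summed level of 10 brown adipocyte markers ran from 25325 to 28976 CPM in controls and from 35608 to 40781 CPM in the cold, with Ucp1, Cox7a1 and Elovl3 higher and Adipoq lower. Other cell types were present at lower summed levels: 6 endothelial markers at 594 to 769 CPM in controls and 744 to 891 CPM in the cold (Kdr and Emcn higher), 6 macrophage markers at 43.3 to 62.8 and 28.6 to 111 CPM (Cd68 and Itgam higher), and 7 smooth muscle and pericyte markers at 451 to 696 and 507 to 706 CPM (0 changed). The macrophage markers did not move together. Csf1r, Mrc1 and Cd14 had negative log2 fold changes (-0.28, -0.03 and -0.28) and Emr1 a positive one (0.61), and none of these passed. Cold replicate 5 had the lowest macrophage sum (28.6 CPM). Of the other endothelial markers Tek and Tie1 had negative values (-0.15 and -0.11) and Pecam1 and Cdh5 positive ones (0.43 and 0.22). The part of shifts in any of these cell type markers in the chaperone results was not tested.

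After 3 days in the cold 4 of 11 cytosolic Hsp70 and Hsp110 genes, 4 of 6 genes of Hsp90 and its cochaperones and 3 of 9 of their J proteins were higher, the TRiC chaperonin and most specialised J proteins did not pass the test, and the mitochondrial chaperones split (3 of 13 higher, 2 lower). By edgeR's quasi-likelihood test with Benjamini-Hochberg adjustment over all 11229 genes tested, at a threshold of 0.05, 18 of the 82 tested chaperone genes (22.0%) were higher in the cold and 5 (6.1%) were lower. Over all genes tested the shares were 10.2% higher and 9.16% lower, 19.3% in either direction. The median log2 fold change was 0.08 for the chaperones and -0.02 for all genes, and 51 of 82 chaperones (62.2%) had a positive value against 47.7% of all genes. In 16 chaperone genes every cold library lay above every control library (7.39% of all genes did), and in 3 every cold library lay below (6.58% of all genes). Without control replicate 2 and cold replicate 5, 18 were higher and 9 lower, where the shares of all genes were 13.6% and 11.7%. Both numbers depended on single libraries. The number higher was 12 without cold replicate 3 (7.29% of all genes). It was 16 without control replicate 1, control replicate 2 or cold replicate 4 (10.5%, 11.3% and 7.43% of all genes). The number lower was 3 without control replicate 4, cold replicate 3 or cold replicate 4 (7.09%, 6.55% and 6.49% of all genes), and 9 without cold replicate 5 (9.91% of all genes). The deposited comparison of the authors held the same 82 genes, with 15 higher and 6 lower at an FDR under 0.05 in the authors' deposited table, where the background was 10.7% and 9.07%. Of these, 14 higher and 5 lower were also called here; Hspa1a and Bag4 passed only in that table, and Dnaja2, Dnajc25, Hspd1 and Stip1 only here.

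The 12 genes below the filter had at most 14 reads in any library. They were the muscle-associated small heat shock genes Hspb2, Hspb3 and Hspb7, Cct6b, Dnajb13 and Hspb9, known from testis, and Cct8l1, Dnajb7, Dnajb8, Dnajc5b, Dnajc5g and Dnajc6. Dnajb8 and Dnajc5g had 0 reads in all 10 libraries.

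**Figure D1:**
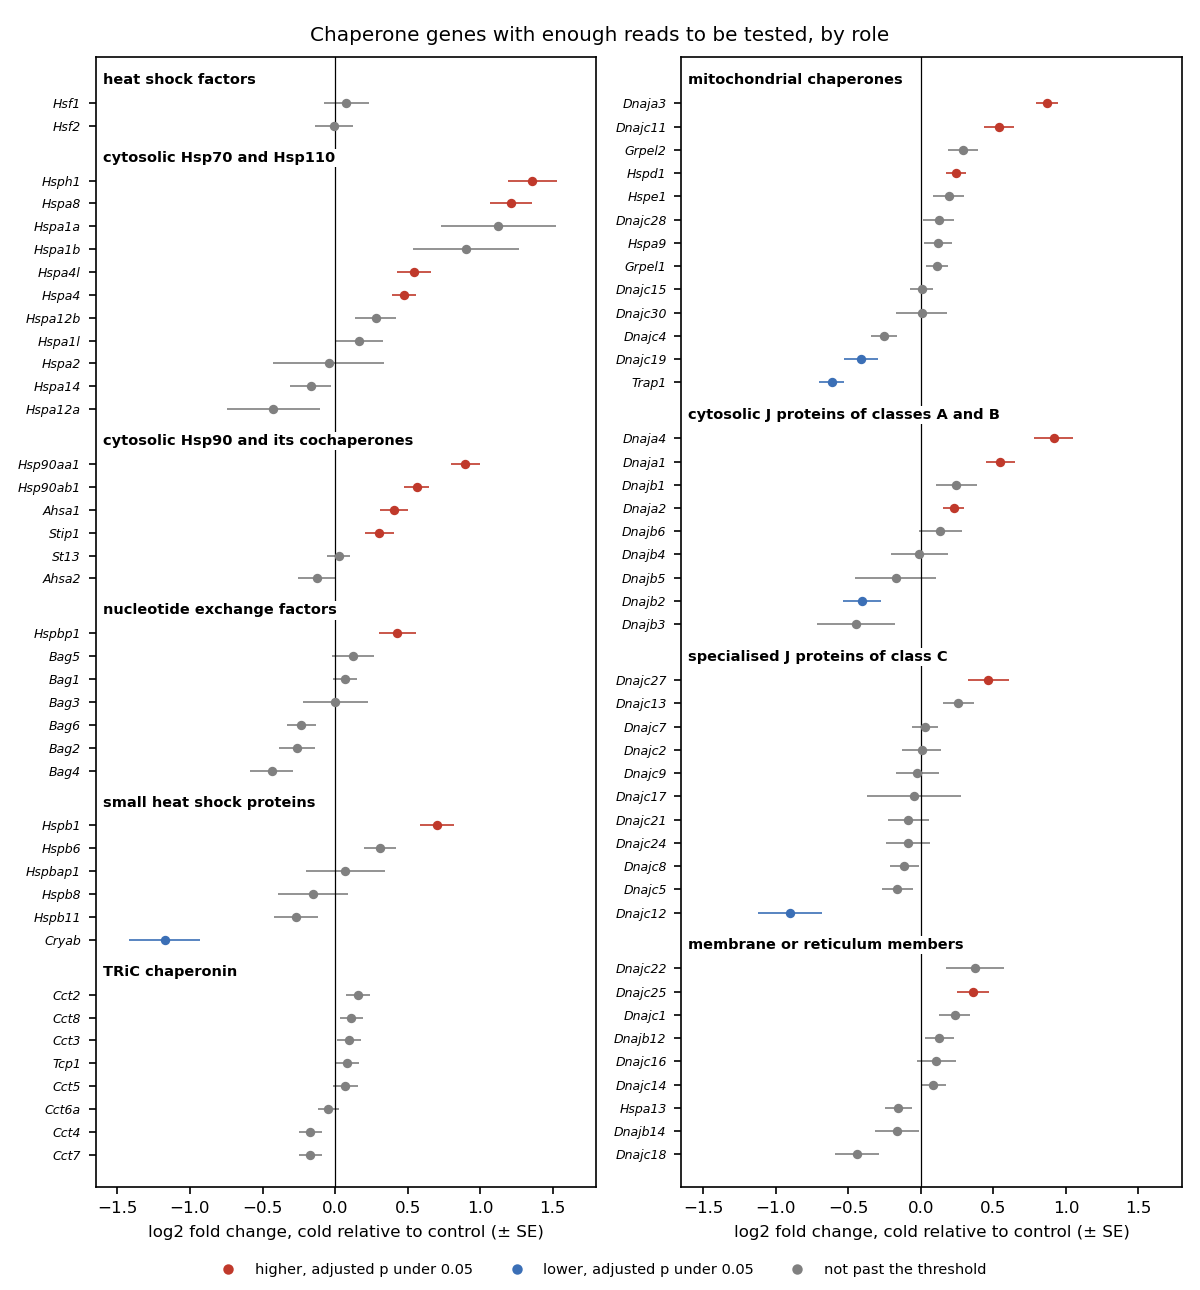
Log2 fold change of cold relative to control (x axis, point, with its standard error as a line) for the 82 tested chaperone genes, grouped by role, with 5 libraries per group. Red points are the 18 genes higher and blue points the 5 genes lower at an adjusted p under 0.05. The red points gather in the Hsp70, Hsp90 and class A J protein groups, and every TRiC point is grey.

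Hsf1 and Hsf2 encode heat shock factors, the transcription factors that bind heat shock elements in chaperone promoters. Hsf1, the main factor of the acute heat shock response, measured 25.7, 19.2, 22.0, 16.6 and 16.3 CPM in control replicates 1 to 5 and 19.7, 15.8, 22.8, 24.2 and 22.4 CPM in cold replicates 1 to 5. Hsf2 measured 11.1, 13.7, 12.4, 12.9 and 14.0 CPM in controls and 11.7, 14.9, 10.4, 13.6 and 13.3 CPM in the cold. The groups overlapped for both genes, and neither passed the test: the log2 fold change was 0.08 (SE 0.15, adjusted p = 0.761) for Hsf1 and -0.01 (SE 0.13, adjusted p = 0.964) for Hsf2. The sign for Hsf2 turned positive without library scaling (0.02) and when any of 4 single libraries was left out.

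A heat shock element is a run of inverted GAA units spaced by any pair of bases. The promoters of 74 of the 94 genes could be read from RefSeq (GRCm38.p6, 250 bases before to 50 bases after each start, 94 promoters in all). A pair of units, written GAANNTTC or TTCNNGAA, stood in 22 of these 94 promoters (23.4%), against 4946 of 32851 promoters in the whole table (15.1%). Runs of 3 units, in which either pair is followed after 2 bases of any kind by a further GAA or TTC in alternation, stood in 6 of 94 (6.38%), against 198 of all promoters (0.603%). The longer motif contains the shorter, each shorter motif reads the same on both strands, and both strands were searched for all of them. The 6 promoters belong to 4 genes: Hspd1, Hspe1, Hsph1 and Dnajb6. They hold fewer separate sites, since Hsph1 and Dnajb6 each have overlapping promoters that count the same run again, and Hspd1 and Hspe1 share a stretch. By gene, a run of 3 units stood in 4 of 74 members and in 179 of 27025 genes of the whole table. A pair stood in 20 of 74 members and in 4587 of 27025 genes. Of the 19 promoters of genes higher in the cold, 7 held a pair (36.8%, 6 of 14 genes, with Hsph1 counted more than once), and of the 4 promoters of genes lower in the cold, 0 did. Among the 60 promoters of tested genes that did not pass, 12 held a pair (20%, 11 of 47 genes). These are counts of letters, not of bound sites.

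The matches that lie before the start are shown for every tested member that has one, so that members with and without a change in the cold can be set side by side; Bag3, Hspb8 and Cct6a have matches only after the start. Sequences are from RefSeq (GRCm38.p6), 5′ to 3′ on the strand of the gene, with the matched letters in capitals. Hspe1 and Hspd1 start back to back and share 1 stretch, chr1:55088053-55088082, read on the plus strand for Hspe1 and on the minus strand for Hspd1. The others are Hsph1 at chr5:149636356-149636375 (minus strand), Hspb1 at chr5:135887796-135887835 (plus), Dnaja1 at chr4:40722338-40722357 (plus), Dnaja4 at chr9:54699463-54699520 (plus), Dnajc27 at chr12:4082355-4082374 (plus), Hspa1a at chr17:34972247-34972266 (minus), Hspa1b at chr17:34959329-34959348 (minus), Hspb6 at chr7:30553175-30553194 (plus), Dnajb4 at chr3:152193846-152193865 (minus), Dnajb6 at chr5:29735846-29735870 (plus), Cct2 at chr10:117063404-117063423 (minus) and Cct5 at chr15:31601867-31601886 (minus). Hspd1, Hsph1, Hspb1, Dnaja1, Dnaja4 and Dnajc27 were higher in the cold, and the others did not pass.
Hspe1: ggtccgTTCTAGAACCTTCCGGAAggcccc
Hspd1: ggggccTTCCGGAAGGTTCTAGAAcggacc
Hsph1: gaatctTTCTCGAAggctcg
Hspb1: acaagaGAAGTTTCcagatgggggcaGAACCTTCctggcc
Dnaja1: cctctaGAAAATTCtacgag
Dnaja4: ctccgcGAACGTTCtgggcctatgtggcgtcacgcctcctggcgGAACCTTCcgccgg
Dnajc27: atcggtGAAGATTCcaggaa
Hspa1a: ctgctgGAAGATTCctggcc
Hspa1b: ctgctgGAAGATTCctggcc
Hspb6: attattGAAGTTTCtaaata
Dnajb4: tcgctgTTCTAGAAagtaca
Cct2: agtgaaGAAGTTTCtagcag
Cct5: ggccgaTTCCAGAAgctact
Dnajb6: ctccgaGAATCTTCCGGAAcgctag

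The shared Hspe1 and Hspd1 stretch holds 3 overlapping pairs in an unbroken run. The run of 3 units of Hsph1 lies after its start and is not printed, and the pair shown lies before it. Hspb1 and Dnaja4 each carry 2 separate pairs, and the windows of the near-identical genes Hspa1a and Hspa1b have the same letters. The 20 members not matched were Hspa8, Hsp90aa1, Hsp90ab1, Dnajc11, Cryab, Dnajc12, Hspa9, Hspa13, St13, Hsf1, Bag4, Cct4, Grpel2, Hspb2, Dnajc2, Dnajc5, Dnajc5b, Dnajc18, Dnajc22 and Dnajc30.

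In the group of cytosolic Hsp70 and its larger relatives, the Hsp110 proteins, Hspa8, Hsph1, Hspa4 and Hspa4l rose in the cold. Of 11 genes tested in the group 4 were higher (36.4%, beside 10.2% of all genes), 0 were lower (9.16% of all genes), and the median log2 fold change was 0.48. Hspa8 (NM_031165, mm9 chr9:40609356-40613282, plus strand) encodes the constitutive cytosolic Hsp70, which also strips clathrin coats. It measured 309, 245, 229, 228 and 161 CPM in controls and 503, 557, 646, 509 and 499 CPM in the cold. Every cold library lay above every control, and control replicate 5 was the lowest. The change was 2.32-fold (log2 1.21, SE 0.14, adjusted p = 0.000116). Of the 50-base words of its transcripts, 73.2% also occur in another gene's transcripts, mostly those of Gm15459 (70.0%). How reads that map to several places were counted is not given in the sources used here.

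Hsph1 (NM_013559, mm9 chr5:150419420-150438890, minus strand) encodes the stress-inducible Hsp110 that acts as an exchange factor for Hsp70 and works in protein disaggregation. Its controls measured 47.0, 20.9, 33.5, 27.7 and 26.4 CPM and its cold libraries 80.5, 83.6, 80.6, 73.4 and 79.3 CPM. The cold libraries lay within a narrow band above all controls, of which replicate 1 was the highest. It had the largest log2 fold change of the tested chaperones, 1.36 (SE 0.17, 2.57-fold, adjusted p = 0.000139). Hspa4, a constitutive Hsp110, measured 209, 161, 178, 165 and 189.5 CPM in controls and 251, 246, 264, 236 and 256 CPM in the cold, a rise of 0.48 on the log2 scale (SE 0.08, adjusted p = 0.0018). Its relative Hspa4l measured 41.5, 42.1, 47.2, 31.1 and 33.8 CPM and 53.1, 58.0, 64.4, 52.4 and 56.2 CPM (log2 fold change 0.54, SE 0.12, adjusted p = 0.00627). Neither gene's groups overlapped.

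The strictly heat-inducible pair Hspa1a and Hspa1b stayed near the bottom of the range. Hspa1a had 14, 15, 7, 18 and 10 reads in controls and 14, 42, 40, 68 and 14 in the cold, and Hspa1b had 11, 16, 15, 16 and 9 against 17, 18, 49, 58 and 18. Cold replicates 3 and 4 were high for both genes, cold replicate 2 for Hspa1a alone, and the other cold values lay within or just above the control range. The log2 fold changes were 1.13 (SE 0.40, adjusted p = 0.0647) and 0.90 (SE 0.36, adjusted p = 0.101), so neither passed. Hspa1a passed in DESeq2, in the authors' deposited table (FDR 0.0284) and when cold replicate 1 or cold replicate 5 was left out. The pair shares 60.3% and 62.3% of its 50-base words with other genes, mainly each other, so the split of reads between them is uncertain.

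The other 5 Hsp70 genes did not pass. Hspa12b, known from endothelial cells, measured 44.97 ± 10.1 CPM (mean ± SD, n = 5) in controls and 54.8 ± 6.07 CPM in the cold (adjusted p = 0.177), beside the endothelial marker sums given above. Hspa14 and Hspa12a had log2 fold changes of -0.17 and -0.43, and Hspa1l and Hspa2 averaged at most 7.20 CPM in either group.

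Hsp90 and its cochaperones had the highest share of genes that rose among the role groups, 4 of 6 (66.7%, beside 10.2% of all genes). In this group 0 were lower (9.16% of all genes) and the median log2 fold change was 0.36. Hsp90aa1 (NM_010480, mm9 chr12:111929246-111934605, minus strand), the inducible cytosolic Hsp90, measured 138, 133, 129, 101 and 111 CPM in controls and 231, 229, 256, 211 and 211 CPM in the cold, 1.86-fold (log2 0.90, SE 0.10, adjusted p = 6.71e-05). Hsp90ab1 (NM_008302, mm9 chr17:45704727-45710210, minus strand), the constitutive form, measured 706, 760.4, 712, 577 and 623 CPM and 906, 965, 1055, 1012 and 1048 CPM, 1.48-fold (log2 0.56, SE 0.09, adjusted p = 0.000911). All cold libraries exceeded all controls for both. Of the 50-base words of Hsp90aa1 58.5% are shared with other genes, mainly Gm12346, and of those of Hsp90ab1 4.49%. Over 10% was shared for 6 of the 18 genes that rose and for 0 of the 5 that fell, beside 14 of the 93 members that could be searched.

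Ahsa1, which speeds up the ATPase of Hsp90, measured 84.9, 76.9, 76.6, 62.7 and 75.2 CPM in controls and 85.5, 93.3, 110.2, 101 and 108 CPM in the cold (log2 fold change 0.41, SE 0.10, adjusted p = 0.0121). Of its 50-base words 14.6% are shared with other genes. The gap between the groups was small, since control replicate 1 lay just under cold replicate 1. Stip1, the adaptor that bridges Hsp70 and Hsp90, measured 72.0, 51.7, 66.9, 57.8 and 61.8 CPM and 77.3, 82.0, 82.2, 68.2 and 73.0 CPM (log2 fold change 0.30, SE 0.10, adjusted p = 0.0466). Its groups overlapped, and it lost its call in 8 of the 10 fits without 1 library, at adjusted p from 0.0517 to 0.109; it kept it without control replicate 1 and without cold replicate 4. Upper quartile scaling, library sizes without the 20 most abundant genes and both other filters also ended its call (adjusted p 0.0508 to 0.0608). St13, another adaptor between the same chaperones, measured 118, 103, 109, 99.2 and 106 CPM in controls and 113, 108, 115, 93.8 and 114 CPM in the cold and was nearly level (log2 fold change 0.03, SE 0.08, adjusted p = 0.854). Ahsa2 did not pass either (adjusted p = 0.539).

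**Figure D2:**
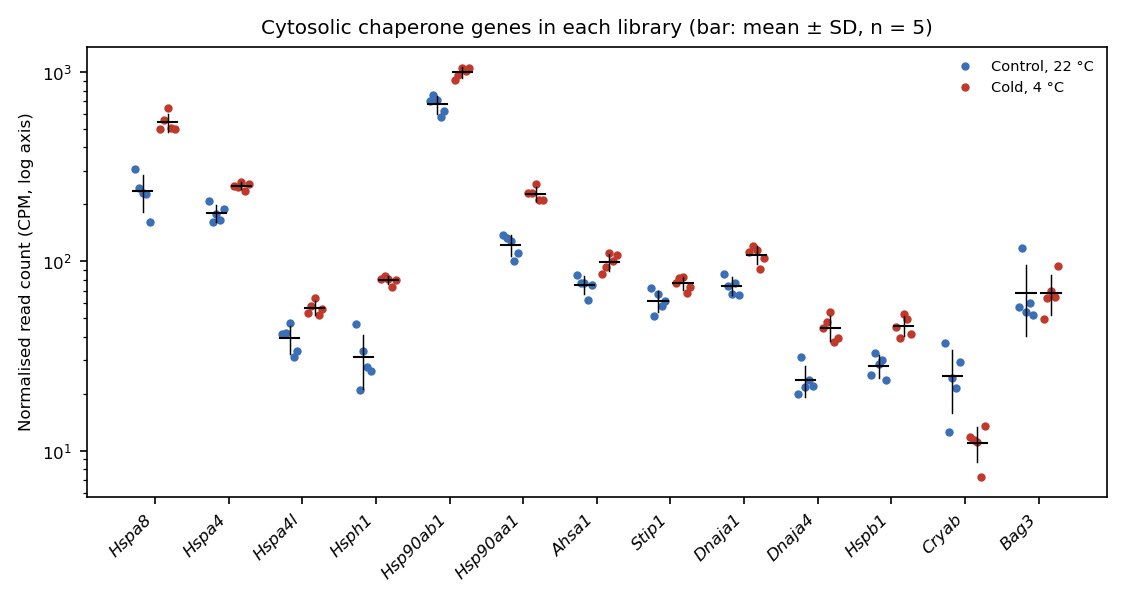
Normalised read counts (CPM, log axis) of 13 cytosolic chaperone genes, 1 point per library, with controls at 22 °C in blue, cold at 4 °C in red, and the mean ± SD (n = 5) in black. Hspa8, Hsph1, Hsp90aa1 and Dnaja4 have clear gaps between the groups, Cryab lies lower in the cold with 1 control near the cold libraries, and for Bag3 control replicate 2 stands apart at 118 CPM.

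Among the nucleotide exchange factors 1 of 7 rose (14.3%, beside 10.2% of all genes), 0 fell (9.16% of all genes), and the median log2 fold change was 0.00. The count lower was 2 without cold replicate 5 (Bag4 and Bag6) and 1 without control replicate 1 (Bag4) or control replicate 2 (Bag6). In these fits 9.91%, 9.87% and 10.2% of all genes were lower. The gene that rose was Hspbp1, which releases nucleotide from Hsp70, at 21.4, 18.8, 23.2, 23.2 and 26.2 CPM in controls and 30.5, 27.7, 37.3, 24.7 and 31.5 CPM in the cold (log2 fold change 0.43, SE 0.13, adjusted p = 0.0317). The groups overlapped slightly, and 6 of the 10 fits without 1 library lost the call (adjusted p up to 0.0868; kept without control replicate 5 and without cold replicate 2, 4 or 5). Bag3, which links Hsp70 to small heat shock proteins and selective autophagy, measured 57.1, 118, 53.9, 60.5 and 51.9 CPM in controls and 49.4, 64.0, 70.1, 64.7 and 94.1 CPM in the cold. The means were level (log2 fold change 0.00, SE 0.23, adjusted p = 0.995), control replicate 2 stood far above the other controls, and the sign turned with the scaling and the filter (-0.02 to 0.00). In that library the summed level of 11 immediate early genes was 508 CPM, against 96.6 to 192 CPM in the other controls. In the cold the sum was 106 to 189 CPM (of 8 tested, Jun was higher and Nr4a3 lower in the cold). Nr4a1 (311 CPM), Atf3 (50.9 CPM) and Nr4a3 (45.8 CPM) made up most of the sum in control replicate 2. Fosb, Jun and Ier2 were also highest there among controls, and Fos, Junb, Egr1, Egr2 and Ier3 were not. The part of these genes in the Bag3 value was not tested.

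Bag1, an exchange factor that also ties Hsp70 to the proteasome, had the highest level per length of the group (183 RPKM in controls) and did not pass (log2 fold change 0.07, SE 0.08, adjusted p = 0.599). Bag4, known for binding to death receptors, measured 72.2 ± 15.9 CPM in controls and 53.5 ± 8.31 CPM in the cold (log2 fold change -0.44, adjusted p = 0.0574) and did pass as lower in the authors' deposited table (FDR 0.0409), in DESeq2, with upper quartile scaling and with library sizes that leave out the 20 most abundant genes. Bag2, Bag5 and Bag6 had adjusted p from 0.116 to 0.589.

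Small heat shock proteins hold unfolding clients without ATP. The genes grouped under this name by symbol, not all of them known holders of clients, split between 1 that rose and 1 that fell among 6 tested (median log2 fold change -0.04). That was 16.7% in each direction, beside 10.2% of all genes higher and 9.16% lower. Hspb1 (NM_013560, mm9 chr5:136363789-136365433, plus strand) encodes the widely expressed Hsp25 and measured 25.1, 32.9, 28.7, 30.1 and 23.5 CPM in controls and 45.1, 39.4, 52.6, 49.8 and 41.4 CPM in the cold. No libraries of the groups overlapped, and the rise was 1.63-fold (log2 0.70, SE 0.12, adjusted p = 0.00136). It shares 51.6% of its 50-base words with other genes, mainly Hsp25-ps1. Cryab (NM_001289782, mm9 chr9:50559430-50564740, plus strand), the alpha-B crystallin of lens and muscle, measured 37.0, 12.5, 24.1, 21.5 and 29.2 CPM in controls and 11.8, 11.3, 11.1, 7.28 and 13.4 CPM in the cold. Control replicate 2 fell inside the range of the cold libraries, the other controls lay above it, and the log2 fold change was -1.18 (SE 0.25, adjusted p = 0.00558).

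Skeletal muscle is another tissue known to express Cryab. The summed level of 17 skeletal muscle markers was 43.1 to 156 CPM in controls and 38.3 to 484 CPM in the cold, with 2 of the 17 genes above the count filter, 0 changed and Myod1 at 0 in every library. Cold replicates 2 and 3, with the highest sums (484 and 357 CPM), had Cryab levels of 11.3 and 11.1 CPM. Control replicate 4, with the highest sum of the controls (156 CPM), had a Cryab level of 21.5 CPM. The part of muscle in the Cryab values was not tested. The Cryab and Hspb2 models overlap by 1030 bases on opposite strands, and Hspb2 averaged under 1 CPM in both groups.

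Hspb8, the Bag3 partner, had the highest level per length of the small heat shock group (58.1 RPKM in controls) and a wide spread, 175, 50.5, 101, 87.2 and 112 CPM in controls against 104, 97.4, 96.3, 71.5 and 103 CPM in the cold (adjusted p = 0.695). Hspb6 measured 19.6 ± 2.22 CPM and 24.3 ± 2.11 CPM and did not pass (log2 fold change 0.31, adjusted p = 0.0639), although it did without control replicate 5 and without library scaling. Hspb11 and Hspbap1, placed in the group by symbol, had adjusted p of 0.226 and 0.883.

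TRiC, the cytosolic chaperonin that folds actin and tubulin, has 8 subunits, and all 8 of its standard genes were tested with none passing. Over all genes 10.2% were higher and 9.16% lower. Their log2 fold changes ran only from -0.17 to 0.16, around a median of 0.08, with adjusted p from 0.138 (Cct7) upwards. Tcp1, the gene of the alpha subunit and the highest per length (95.7 RPKM in controls), measured 185 ± 15.9 CPM in controls and 196 ± 15.3 CPM in the cold (log2 fold change 0.08, SE 0.08, adjusted p = 0.516). The summed level of the TRiC genes was 1097 ± 91.4 CPM in controls and 1118 ± 41.7 CPM in the cold (mean ± SD, n = 5), with overlapping ranges of 1003 to 1237 and 1065 to 1162 CPM. A p above the threshold does not show that these genes were unchanged, and the standard errors of 0.07 to 0.09 give the precision.

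Of the mitochondrial chaperones 3 of 13 rose and 2 fell (23.1% and 15.4%, beside 10.2% and 9.16% of all genes), with a median log2 fold change of 0.12. The gene with the smallest adjusted p among all members was Dnaja3 (NM_023646, mm9 chr16:4684070-4707693, plus strand), the mitochondrial J protein that feeds clients to Hspa9. It measured 377, 368, 384, 331 and 366 CPM in controls and 656, 667, 732, 681 and 604 CPM in the cold. The lowest cold library was far above the highest control, and the rise was 1.83-fold (log2 0.87, SE 0.08, adjusted p = 1.36e-05). Trap1 (NM_026508, mm9 chr16:4039977-4077810, minus strand), the mitochondrial Hsp90, went the other way, with 391, 386, 378, 348 and 375 CPM in controls and 239.9, 241, 239, 214 and 292 CPM in the cold. Each cold library lay below each control, with cold replicate 5 the highest of them, and Trap1 fell by 0.61 on the log2 scale (SE 0.09, 0.653 of the control level, adjusted p = 0.000394). Both genes kept their calls in all 20 alternative fits.

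Dnajc11, a J protein of the complex that shapes the inner membrane cristae, rose from 144, 96.1, 133, 108 and 119 CPM in controls to 174, 159, 177, 176 and 185 CPM in the cold (log2 fold change 0.54, SE 0.10, adjusted p = 0.00352). All cold libraries were above all controls. Dnajc19, a J protein of the inner membrane import motor, measured 28.0, 29.9, 27.3, 32.1 and 35.0 CPM and 25.9, 26.2, 22.9, 19.6 and 19.97 CPM (log2 fold change -0.41, SE 0.12, adjusted p = 0.0256). Its groups were only narrowly apart, and it lost the call without control replicate 4 or 5 and without cold replicate 3 or 4 (adjusted p 0.0566 to 0.0681). Its model overlaps 12065 bases of Fxr1 on the opposite strand, which went from 74.5 to 108 CPM; the library kit named in the labels does not keep strand, so reads of the overlap cannot be told apart.

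Hspa9, the mitochondrial Hsp70, was the most abundant chaperone per length, at 667 RPKM in controls and 724 RPKM in the cold. By library it measured 2432, 1962, 1803, 1745 and 2209.5 CPM in controls and 2173, 2239, 2179.7, 2072 and 2348 CPM in the cold. The groups overlapped (log2 fold change 0.12, SE 0.10, adjusted p = 0.424). Hspd1 (NM_010477, mm9 chr1:55134678-55144776, minus strand), the Hsp60 ring, measured 798, 741, 763, 699.7 and 722 CPM and 861, 899.9, 941, 822 and 887 CPM, a rise of 0.24 on the log2 scale (SE 0.07, adjusted p = 0.0266). Hspe1 (NM_008303, mm9 chr1:55144992-55148161, plus strand), the Hsp10 lid of that ring, measured 142, 185, 174, 166 and 134 CPM and 181, 167, 220.3, 174 and 174 CPM (log2 fold change 0.19, SE 0.11, adjusted p = 0.223). The Hspd1 groups were apart by a small gap and those of Hspe1 overlapped. Hspd1 lost its call without control replicate 4 or 5 and without cold replicate 2 or 3 (adjusted p 0.0653 to 0.0744), and with no filter on low counts (0.0504). Of the 50-base words of Hspd1 44.8% are shared with other genes and of those of Hspe1 36.1%.

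Grpel1, the exchange factor of Hspa9, measured 455, 417, 399, 395 and 418 CPM in controls and 469, 444, 491, 419 and 430.2 CPM in the cold with overlapping groups (log2 fold change 0.11, SE 0.07, adjusted p = 0.304). Its paralog Grpel2 measured 35.4 ± 4.32 CPM (mean ± SD, n = 5) in controls and 43.2 ± 3.62 CPM in the cold (log2 fold change 0.29, adjusted p = 0.0636). Dnajc15, an inner membrane J protein with the third highest level per length of all members, stood at 294 and 295 RPKM. Dnajc4, Dnajc28 and Dnajc30 did not pass (adjusted p 0.0648, 0.452 and 0.986).

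**Figure D3:**
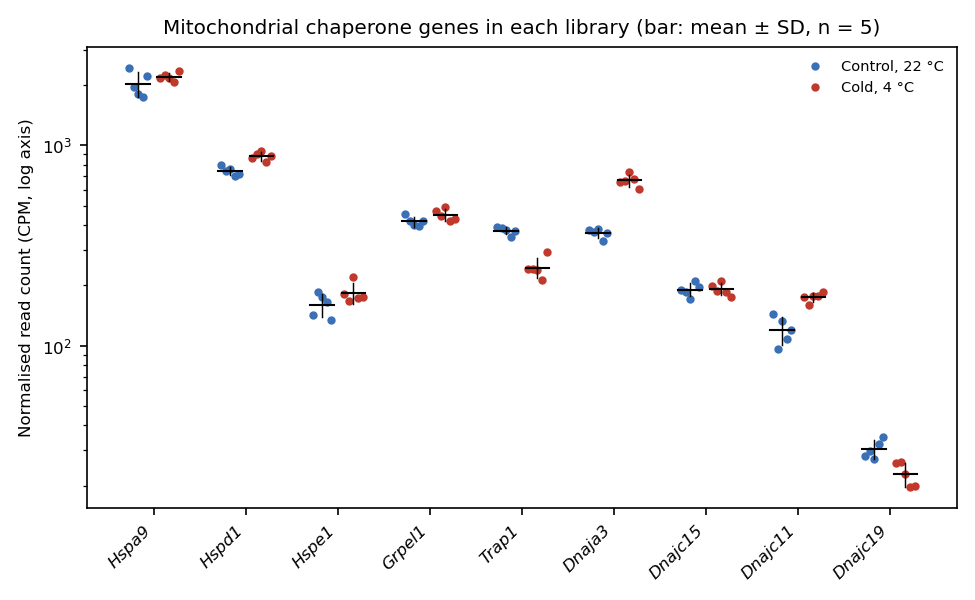
Normalised read counts (CPM, log axis) of 9 mitochondrial chaperone genes, 1 point per library, with controls in blue, cold in red and the mean ± SD (n = 5) in black. Dnaja3 and Dnajc11 lie higher and Trap1 and Dnajc19 lower in every cold library than in any control, while Hspa9, Hspe1, Grpel1 and Dnajc15 overlap.

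The cytosolic J proteins of classes A and B, the partners of Hsp70, had 3 of 9 genes higher and 1 lower (33.3% and 11.1%, beside 10.2% and 9.16% of all genes). The 3 were the class A genes with a cytosolic product. Dnaja1 (NM_008298, mm9 chr4:40669501-40684184, plus strand), a farnesylated partner of Hspa8, measured 86.2, 74.2, 67.2, 77.1 and 66.7 CPM in controls and 112, 121, 114, 91.1 and 104 CPM in the cold (log2 fold change 0.55, SE 0.10, adjusted p = 0.00223). Dnaja4 (NM_021422, mm9 chr9:54547366-54564124, plus strand) measured 19.9, 31.1, 21.5, 23.7 and 21.8 CPM and 44.4, 47.6, 53.9, 37.5 and 39.6 CPM, 1.89-fold (log2 0.91, SE 0.14, adjusted p = 0.000684). Both had every cold library above every control, and 18.7% of the 50-base words of Dnaja1 are shared with other genes. The Dnaja1 model also overlaps 1503 bases of Smu1 on the opposite strand, which went from 61.1 to 54.5 CPM, and reads of the overlap cannot be told apart. Another gene model overlaps 13 of the tested members, in 0 of them on the same strand. Dnaja2, the most abundant of the group per length (48.4 RPKM in controls), measured 139, 154, 134, 125 and 135 CPM and 158, 157, 159.8, 161 and 169 CPM (log2 fold change 0.23, SE 0.07, adjusted p = 0.0425). The Dnaja2 groups were narrowly apart, and the call held in 1 of the 10 fits without 1 library, the fit without control replicate 2 (adjusted p 0.0559 to 0.102 in the others). Both other filters on low counts also ended it (0.0508 and 0.0771).

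Dnajb1, the classical heat-inducible Hsp40, measured 48.1, 39.7, 41.7, 39.3 and 36.7 CPM in controls and 37.9, 47.3, 55.2, 38.9 and 64.4 CPM in the cold. Only cold replicates 3 and 5 exceeded all controls, and the gene did not pass (log2 fold change 0.25, SE 0.14, adjusted p = 0.253). Dnajb2, which carries clients to the proteasome, measured 47.6, 60.7, 59.8, 53.8 and 41.6 CPM and 36.7, 31.2, 41.7, 42.6 and 46.8 CPM (log2 fold change -0.41, SE 0.13, adjusted p = 0.0441). The groups overlapped, and 7 of the 10 fits without 1 library lost the call (adjusted p 0.0669 to 0.104; kept without control replicate 1 or 5 and without cold replicate 5), as did the fit with no library scaling (0.0602). Dnajb4 was level (adjusted p = 0.98), with control replicate 2 at 99.8 CPM and the other controls at 39.8 to 58.9 CPM. Control replicate 2 was also the library with the raised immediate early sum, and the part of that sum in the Dnajb4 value was not tested. Dnajb6, whose promoter holds a run of 3 units as shown above, did not pass (log2 fold change 0.14, adjusted p = 0.554), nor did Dnajb3 and Dnajb5.

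Class C holds J proteins with specialised tasks, and 1 of its 11 tested genes outside the mitochondria and membranes was higher and 1 lower, with a median log2 fold change of -0.04. That was 9.09% in each direction, near the 10.2% and 9.16% of all genes. Dnajc12 (NM_001253685, mm9 chr10:62845191-62871588, plus strand), a cochaperone of aromatic amino acid hydroxylases, measured 5.42, 9.003, 5.27, 6.89 and 5.36 CPM in controls and 2.91, 3.26, 4.41, 3.80 and 2.61 CPM in the cold. All cold libraries were below all controls, at a low level, and the log2 fold change was -0.90 (SE 0.22, adjusted p = 0.0125). Dnajc27, which joins a J domain to a Rab-like GTPase, measured 15.8, 16.0, 13.3, 10.8 and 15.04 CPM and 16.3, 17.5, 20.8, 23.3 and 19.8 CPM (log2 fold change 0.46, SE 0.14, adjusted p = 0.0353). The lowest cold library was only just above the highest control, and 6 of the 10 fits without 1 library lost the call (adjusted p 0.0517 to 0.0942; kept without control replicate 1 or 2 and without cold replicate 1 or 2). The most abundant per length was Dnajc7, a J protein that sits between Hsp70 and Hsp90, at 55.5 RPKM in controls, and it was level (log2 fold change 0.03, adjusted p = 0.858). Dnajc5, the cysteine string protein of secretory vesicles, and Dnajc13, an endosomal J protein, had adjusted p of 0.305 and 0.11.

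Another 9 members sit in the endoplasmic reticulum or other membranes, among them the J proteins Dnajb12, Dnajb14 and Dnajc14. Of these 1 was higher (11.1%, beside 10.2% of all genes) and 0 were lower (9.16% of all genes). The gene that rose was Dnajc25, at 22.1, 27.6, 25.9, 24.2 and 22.2 CPM in controls and 33.1, 27.0, 31.4, 28.2 and 37.3 CPM in the cold (log2 fold change 0.36, SE 0.11, adjusted p = 0.0409). Its groups overlapped, and the call held without control replicate 2, without cold replicate 2 and without cold replicate 4 but in none of the other 7 such fits (adjusted p 0.0562 to 0.0966), nor with no filter (0.0593). Dnajc14 was the most abundant per length (24.2 RPKM in controls, adjusted p = 0.517).

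The scatter plot of levels shows the order of abundance in each group. The order between genes is uncertain, since how multiply mapped reads were counted is not known. The share of 50-base words found in other genes is 73.2% for Hspa8, 44.8% for Hspd1 and 36.1% for Hspe1. It is 4.49% for Hsp90ab1 and 0% for Dnajc15. In controls the highest levels per length were those of Hspa9 (667 RPKM), Hspd1 (319 RPKM), Dnajc15 (294 RPKM), Hsp90ab1 (269.5 RPKM) and Hspe1 (209 RPKM). In the cold Hsp90ab1 stood at 398 RPKM, above Hspd1 at 378 RPKM and Dnajc15 at 295 RPKM. Hspa8 and Dnaja3 moved from 111 and 138 RPKM to 258 and 252 RPKM, and Trap1 from 167 to 109 RPKM. At the other end, Hspa1a stood at 0.914 RPKM in controls and 1.999 RPKM in the cold.

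**Figure D4:**
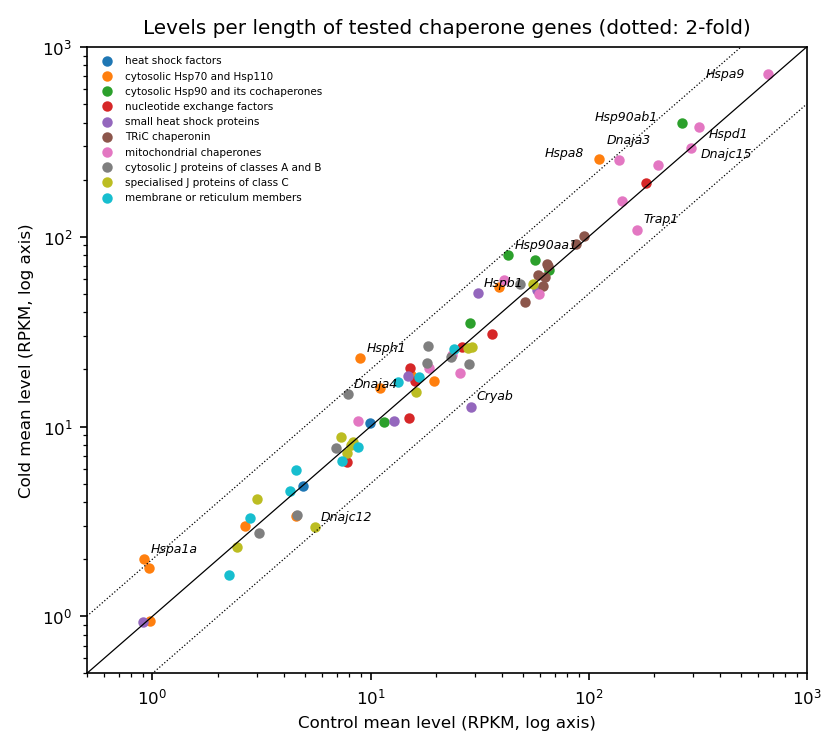
Mean level per length (RPKM, both axes log) of the 82 tested chaperone genes in controls (x axis) and in the cold (y axis), coloured by role, with equality as a solid line and 2-fold differences dotted. Hspa8, Hsph1 and Hspa1a lie above the upper dotted line and Cryab lies below the lower one, while Hspa9 and Dnajc15 lie near equality at the top.

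Summed over all 94 members, normalised counts were 9275 ± 601 CPM in controls (8500 to 10172) and 10864 ± 369 CPM in the cold (10448 to 11364), without overlap. The Hsp70 and Hsp110 group went from 605 ± 79.1 to 1055 ± 71.9 CPM and the Hsp90 group from 1060 ± 101 to 1526 ± 79.7 CPM (mean ± SD, n = 5). The mitochondrial group went from 4609 ± 349 to 5201 ± 179 CPM, with control replicate 1 (5127 CPM) inside the range of the cold libraries. Control replicate 1 was also the highest control in 33 of the 82 genes (40.2%, against 23.4% of all genes), and control replicate 4 the lowest in 23 (15.6% of all genes). Cold replicate 4 was the lowest cold library in 29 (20.1% of all genes).

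Ratios of read counts within a library take the scaling of the library out of the comparison, and 4 were compared by exact permutation tests over all 252 ways to assign the group names (two-sided, smallest possible p 0.00794, Benjamini-Hochberg adjustment over the 4). The log2 ratio of Hsp90aa1 to Hsp90ab1 was -2.36, -2.52, -2.47, -2.51 and -2.48 in controls and -1.97, -2.07, -2.04, -2.26 and -2.31 in the cold. The inducible form thus took a larger share in every cold library than in any control, by 0.34 on the log2 scale (exact permutation p = 0.00794, adjusted 0.0159). The log2 ratio of Hspa9 to Hspa8 was 2.98, 3.00, 2.98, 2.94 and 3.77 in controls and 2.11, 2.01, 1.75, 2.03 and 2.23 in the cold, a difference of -1.11 (exact permutation p = 0.00794, adjusted 0.0159). Turned back from the mean log2 ratio, Hspa9 had 8.77 reads per Hspa8 read in controls and 4.07 in the cold. The size of this ratio is uncertain, since 73.2% of the 50-base words of Hspa8 and 4.1% of those of Hspa9 are shared with other genes. The ratios use the same counts as the tests by gene above, so their p-values are not separate support.

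The ratio of Hspd1 to Hspe1, which are transcribed away from their shared promoter stretch, differed by 0.05 on the log2 scale (2.22 ± 0.22 against 2.27 ± 0.13, mean ± SD, n = 5; exact permutation p = 0.683, adjusted 0.683). The ratio of Hspa1a plus Hspa1b to Hspa8 was -5.36 ± 0.20 in controls and -5.78 ± 0.72 in the cold (n = 5; exact permutation p = 0.246, adjusted 0.328). Its spread in the cold came with 1 library, replicate 4 at -4.65, without which the difference was -0.70 (exact permutation, adjusted p = 0.0317).

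**Figure D5:**
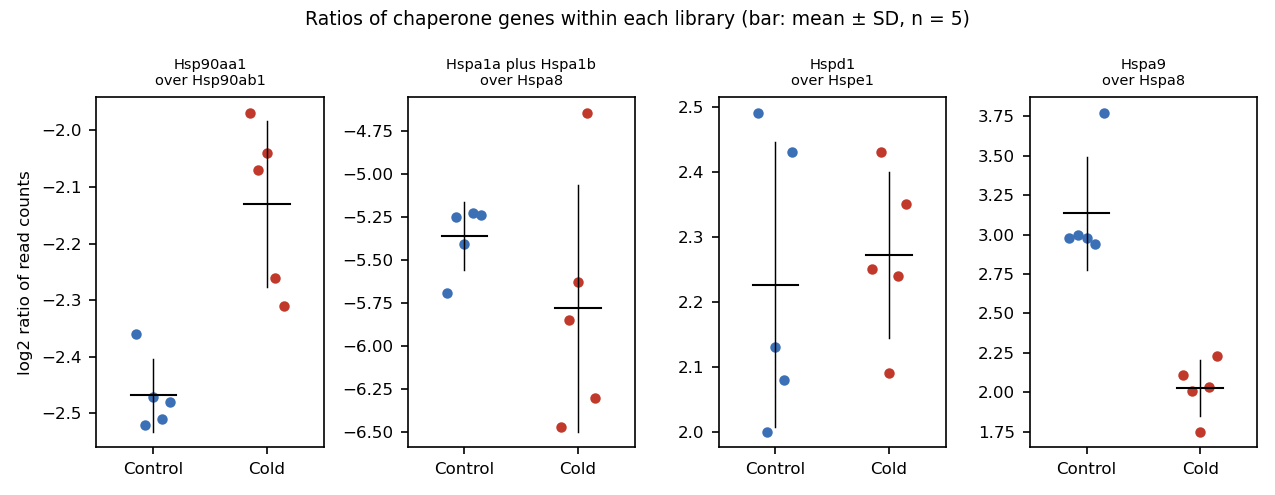
Log2 ratios of read counts of 4 pairs of chaperone genes within each library (y axes differ between panels), 1 point per library, controls in blue, cold in red, with the mean ± SD (n = 5) in black. Hsp90aa1 over Hsp90ab1 lies higher and Hspa9 over Hspa8 lower in every cold library than in any control, and the other ratios overlap.

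Partners of these chaperones that carry other names were followed in lists that do not overlap the 94 genes. Of 27 cytosolic cochaperones and prefoldin subunits 1 was higher and 2 lower (3.7% and 7.41%, beside 10.2% and 9.16% of all genes; median log2 fold change 0.00). Without 1 library the counts were 1 to 3 higher (3 without control replicate 2) and 0 to 3 lower (0 without control replicate 4, cold replicate 1 or cold replicate 4, and 3 without control replicate 3). Over these fits 7.29% to 11.5% of all genes were higher and 6.49% to 10.2% lower. The one that rose was Fkbp4, an immunophilin of Hsp90 complexes with steroid receptors (log2 fold change 0.64, SE 0.11, adjusted p = 0.0015), and the other two were the prefoldin subunit Pfdn2 (-0.36, adjusted p = 0.0212) and the myosin chaperone Unc45a (-0.38, adjusted p = 0.0391). Leaving out 1 library at a time, Fkbp4 kept its call in 10 of 10 fits, Pfdn2 in 7 and Unc45a in 3. Of 12 mitochondrial folding and protease partners 1 was higher and 2 were lower (8.33% and 16.7%, beside 10.2% and 9.16% of all genes). The cyclophilin Ppif was higher (0.72, adjusted p = 0.000308). The disaggregase Clpb (-0.53, adjusted p = 0.00193) and the protease Yme1l1 (-0.32, adjusted p = 0.0066) were lower. The number lower in this list was 5 without control replicate 2, where 10.2% of all genes were lower. Of the 6 reticulum chaperones left out by name, 0 passed the edgeR test, with log2 fold changes of 0.17 for Hsp90b1 (adjusted p = 0.23) and 0.20 for Dnajb11 (adjusted p = 0.243).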

How the data were processed

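RNA of 10 mice was counted by the authors as whole reads per RefSeq transcript, and the deposited counts are not normalised; STAR, edgeR and the genome build mm9 are named in the submitters' processing notes, with no settings for strand or multiply mapped reads. The authors' deposited table of comparisons gives a log2 fold change and an FDR, a p-value adjusted for multiple tests, per gene. The treatment tag of the cold mice words the condition as room temperature while giving 4 °C, and the groups follow titles and temperatures. The labels name separate mice and no batch.

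Counts were tested with edgeR 4.0.16 (quasi-likelihood F test, TMM, filterByExpr) in R 4.3.3 over 11229 genes, with Benjamini-Hochberg adjustment and a threshold of 0.05. SE is the log2 fold change divided by the square root of F. RPKM is CPM per kilobase of the deposited counted length. Gene ratios had a prior count of 2, in proportion to library size, added to both counts (0.5 as an alternative) and were compared by exact permutation. Alternatives were DESeq2 1.42.0, limma 3.58.1 (voom), other scalings and filters, a replicate block and leaving out libraries. The fit was tested on simulated data. The genes given with full values were a panel of 22, the called members with the 4 smallest p in each role, and the most abundant of each role. Members and lists were chosen with earlier results of these data known.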

Additional observations from a re-analysis of the deposited data

Results flagged for a closer look

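In 76 groups of 5 libraries, 3 held a value whose gap to its nearest neighbour was above Dixon's critical share of the group's range (0.71); chance alone would give about 1 in 20 groups. Bag3 in control replicate 2 was 118 CPM, with the next control at 60.5 CPM. That library also had the raised sum of immediate early genes, most of it from Nr4a1, and a link was not tested. Hspe1 in cold replicate 3 was 220 CPM, with the next cold library at 181 CPM. The log2 ratio of Hspa9 to Hspa8 in control replicate 5 was 3.77, with the next control at 3.00; Hspa8 was lowest in that library.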

How the results depend on the processing

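Of the 23 chaperone genes called, 15 kept their call in all 20 alternative fits: Ahsa1, Dnaja1, Dnaja3, Dnaja4, Dnajc11, Hsp90aa1, Hsp90ab1, Hspa4, Hspa4l, Hspa8, Hspb1 and Hsph1 higher, and Cryab, Dnajc12 and Trap1 lower. Leaving out 1 library gave 12 to 16 higher and 3 to 9 lower. Over these fits 7.29% to 11.5% of all genes were higher and 6.49% to 10.2% lower. Leaving out control replicate 2 and cold replicate 5 together gave 18 higher and 9 lower (13.6% and 11.7% of all genes). The deviations of same-numbered libraries had correlations from -0.26 to 0.19, and 2 of 5 controls matched their own number best. The labels do not say whether the numbers pair mice, and these correlations cannot decide it. The replicate block gave 13 higher and 3 lower (8.74% and 7.2% of all genes), without Dnaja2, Dnajb2, Dnajc19, Dnajc25, Dnajc27, Hspd1 and Stip1 (adjusted p 0.066 to 0.099). Over 34 genes and these settings, 590 of 680 values kept direction and side of the threshold, 69 no longer passed, 4 newly passed and 17 changed sign, the last in genes near 0: Hsf2 (0.022 without scaling; -0.072 to 0.058 without 1 library), St13 (-0.0028 to 0.075 without 1 library; -0.0086 without both libraries) and Bag3 (-0.0056 with upper quartile scaling, -0.016 without the 20 most abundant genes in library sizes, -0.00075 without a filter, -0.0012 with a CPM filter, -0.14 to 0.29 without 1 library). Without both libraries the ratio differences were 0.37 for Hsp90aa1 to Hsp90ab1 and -1.19 for Hspa9 to Hspa8, both at an adjusted exact permutation p of 0.0571, since fewer splits remain, and -0.028 for Hspd1 to Hspe1 (-0.0092 without control replicate 2). Leaving out 1 library gave 0.296 to 0.38 for Hsp90aa1 to Hsp90ab1, -1.16 to -0.946 for Hspa9 to Hspa8, -0.0092 to 0.113 for Hspd1 to Hspe1, and -0.70 (without cold replicate 4, adjusted exact permutation p = 0.0317) to -0.245 for Hspa1a plus Hspa1b to Hspa8. The cause of the other shifts was not tested. The filter on low counts left 12 members untested, and Hspa1a, Hspa1b, Hspa2 and Dnajc17 had few reads.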
